A study of Homo sapiens with 4 samples.

Results

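The retinoid genes described here are 10 genes of retinoic acid synthesis, binding and sensing, named by symbol: RDH10, ALDH1A1, ALDH1A3, DHRS3, CRABP2, RARA, RARB, RARG, RXRA and RXRB. All 10 were found among the 60649 gene rows of the count table, and all 10 were among the 18771 genes that passed the filter on low counts. The counts come from RNA sequencing of FaDu, a human cell line established from a hypopharyngeal squamous carcinoma. One group carried a construct for overexpression of TINCR joined to HA and FLAG epitope tags (TINCR-HA-FLAG, 2 libraries) and the other an empty vector (2 libraries). Both were grown in MEM alpha Glutamax with fetal bovine serum, and the labels name no added retinoid. The labels do not say whether either line was a pool or a clone, nor name the promoter of the construct. The series calls the replicates technical, so errors and p-values cover only the spread between these libraries.

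The genes were put together with the results of this contrast known. Every difference of these 10 genes between the groups is therefore a description. Where a gene is said to be called, this gives only its place in the fit over all genes and is no test of it, since the same values were in view when it was chosen. P-values are given only for other genes.

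Retinoic acid is made from vitamin A inside the cell that uses it or in a neighbour. Retinol is first oxidised to retinaldehyde, a reversible step run forward by RDH10 and backward by DHRS3, and retinaldehyde is then oxidised irreversibly to retinoic acid by the ALDH1A enzymes. CRABP2 carries retinoic acid to the nucleus, where heterodimers of a retinoic acid receptor (RAR) and a retinoid X receptor (RXR) bind direct repeats of a hexamer in DNA. In stratified squamous epithelium retinoids are known for holding back cornification, and RARB, DHRS3, CRABP2 and the CYP26 enzymes that break retinoic acid down are themselves known as retinoic acid-induced genes.

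In the TINCR-HA-FLAG libraries, ALDH1A1, RARB, RDH10 and DHRS3 were higher than in the empty vector libraries, by 3.43-fold, 2.75-fold, 2.05-fold and 1.71-fold. CRABP2 was 1.68-fold higher with more spread, and ALDH1A3, the most abundant ALDH1A transcript in every library, was lower at 0.705-fold. The abundant receptors RARG and RXRA and the less abundant RARA overlapped between the groups. Among the 10 genes, 4 were called (adjusted p under 0.05 in the edgeR quasi-likelihood fit over all genes), all higher, in a contrast where 0.549% of all genes tested were called and 0.453% were called higher. Since this contrast was known when the genes were chosen, nothing is read from that count.

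Promoter sequence is shown for the members with the largest rises, RARB because a direct repeat of the kind that RARs bind lies next to an annotated start and ALDH1A1 as the member with the largest fold. Both windows are from RefSeq on GRCh38.p14, run from 250 bases before to 50 bases after an annotated transcription start, and are written 5′ to 3′ on the strand of the gene. In the RARB window (chr3:25428013-25428312, plus strand) capitals mark the hexamers of a direct repeat, and in the ALDH1A1 window (chr9:72953004-72953303, minus strand) capitals mark a CCAAT match.
RARB: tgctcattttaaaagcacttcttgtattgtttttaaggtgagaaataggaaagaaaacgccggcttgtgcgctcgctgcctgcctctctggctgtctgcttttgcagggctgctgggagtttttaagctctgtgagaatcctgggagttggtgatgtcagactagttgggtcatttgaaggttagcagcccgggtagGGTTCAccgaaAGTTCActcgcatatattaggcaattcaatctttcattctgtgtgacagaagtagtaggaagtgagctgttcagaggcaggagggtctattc
ALDH1A1: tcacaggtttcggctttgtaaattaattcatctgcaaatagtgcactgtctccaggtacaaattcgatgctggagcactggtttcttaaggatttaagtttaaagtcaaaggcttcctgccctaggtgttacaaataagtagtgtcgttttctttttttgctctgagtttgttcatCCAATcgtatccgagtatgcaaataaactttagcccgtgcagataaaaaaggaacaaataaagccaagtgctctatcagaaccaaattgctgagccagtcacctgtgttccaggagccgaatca

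The RARB repeat reads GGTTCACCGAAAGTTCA and lies from 53 to 37 bases before that start. It joins the hexamers GGTTCA and AGTTCA with a 5-base spacer, the arrangement known from the textbook retinoic acid response element of this promoter. The search covered direct repeats of the consensus hexamer AGGTCA, its variant AGTTCA, the variant GGGTCA and the variant GGTTCA, in any pairing and with spacers of 1, 2 or 5 bases on both strands, in the 18 windows of the 9 members that have one in the table. One of the 18 windows, this one, held a match, and with AGGTCA and AGTTCA as the only hexamers 0 of the 18 did. The match rests on GGTTCA, itself a hexamer of that known element, so nothing is read from finding it. Over all 35116 windows, 0.131% held a repeat with a spacer of 1 base, 0.0399% with 2 bases and 0.0883% with 5 bases. RARB has 3 other windows, with no match, and gene counts do not tell which start the RARB reads came from. The CCAAT match of ALDH1A1 lies from 74 to 70 bases before the start of its window, and 34.6% of all windows hold CCAAT on either strand. That start lies inside the annotated ALDH1A1 gene (72900662 to 73080442), and the counts do not tell which start its reads came from. A match describes the letters in these windows and not binding in these cells.

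ALDH1A1, a retinaldehyde dehydrogenase (ENSG00000165092.13, GRCh38 chromosome 9, 72900662 to 73080442, minus strand), had 266 and 340 counts in TINCR-HA-FLAG cells, against 79 and 69 counts in empty vector cells. Scaled to library size (as CPM, with TMM factors) it stood at 14.9 ± 0.62 in TINCR-HA-FLAG cells and at 4.34 ± 0.38 in empty vector cells (SD, n = 2 each). Both TINCR-HA-FLAG libraries lay well above both empty vector libraries, with little spread in either group. The log2 fold change was 1.78 (SE 0.19). Bulk RNA does not tell more expressing cells from more RNA per cell, here or for any other gene.

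ALDH1A3, the other retinaldehyde dehydrogenase expressed in squamous epithelium (ENSG00000184254.17, chromosome 15, 100877714 to 100916626, plus strand), had 2977 and 4012 counts in TINCR-HA-FLAG cells, against 3962 and 4313 counts in empty vector cells. Scaled to library size this was 171 ± 13.6 CPM in TINCR-HA-FLAG cells and 243 ± 16.3 CPM in empty vector cells (SD, n = 2 each). Both TINCR-HA-FLAG libraries lay below both empty vector libraries, so the ALDH1A1 and ALDH1A3 transcripts differed between the groups in opposite directions. The log2 fold change was -0.50 (SE 0.11). The gene was not called by edgeR with all 4 libraries. It was called lower by DESeq2 (-0.52), by edgeR without TINCR-HA-FLAG replicate 2 (-0.59) and by edgeR with the replicate number as a block (-0.50), where 14% of all genes were called. DESeq2 called 5 of the 10 members and 1.01% of all genes tested.

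Per length, ALDH1A3 stayed the main transcript of the family. In CPM per kilobase of merged exons (RPKM), it stood at 29.7 ± 2.35 in TINCR-HA-FLAG cells and at 42.1 ± 2.83 in empty vector cells, while ALDH1A1 stood at 5.22 ± 0.22 in TINCR-HA-FLAG cells and at 1.52 ± 0.13 in empty vector cells (SD, n = 2 each). ALDH1A1 made up 15.3% and 14.6% of the ALDH1A transcripts in the TINCR-HA-FLAG libraries, against 3.87% and 3.13% in the empty vector libraries. ALDH1A2, the third enzyme of the family, contributed at most 0.342% in any library. Because ALDH1A3 was lower and far more abundant, the family summed to 33.2 and 36.8 RPKM in the TINCR-HA-FLAG libraries, against 41.8 and 45.6 in the empty vector libraries. The higher ALDH1A1 therefore did not raise the summed ALDH1A transcript level, which was 0.801 times that of empty vector cells.

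**Figure D1:**
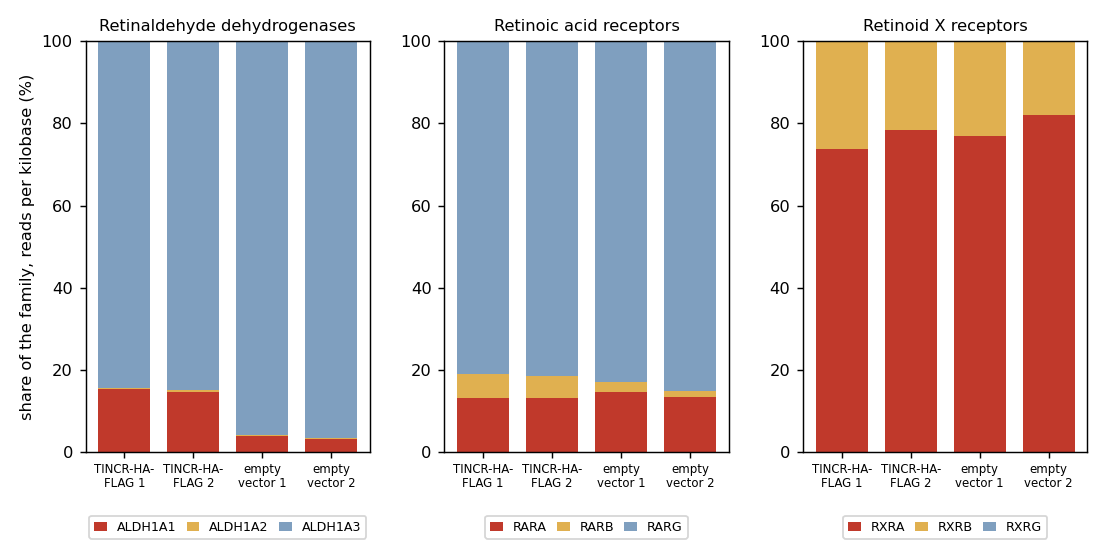
Share of each gene (percent, stacked bars) in the summed reads per kilobase of its family, with 1 bar per library, for the ALDH1A enzymes, the RARs and the RXRs. ALDH1A1 takes 15.3% and 14.6% of its family in the TINCR-HA-FLAG libraries, against 3.87% and 3.13% in the empty vector libraries, while RARG and RXRA lead their families in every library.

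RDH10, the main retinol dehydrogenase of retinoic acid synthesis (ENSG00000121039.10, chromosome 8, 73294612 to 73325281, plus strand), had 530 and 642 counts in TINCR-HA-FLAG cells, against 234 and 246 counts in empty vector cells. Its CPM was 28.9 ± 0.11 in TINCR-HA-FLAG cells and 14.1 ± 0.60 in empty vector cells (SD, n = 2 each). The groups were far apart and the replicates of each nearly equal. The log2 fold change was 1.03 (SE 0.13).

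DHRS3, which reduces retinaldehyde back to retinol (ENSG00000162496.9, chromosome 1, 12567910 to 12617731, minus strand), had 1140 and 1598 counts in TINCR-HA-FLAG cells, against 614 and 721 counts in empty vector cells. Its CPM was 67.0 ± 7.16 in TINCR-HA-FLAG cells and 39.2 ± 4.73 in empty vector cells (SD, n = 2 each). The groups did not overlap, although the replicates of each differed more than those of RDH10. The log2 fold change was 0.77 (SE 0.13). DHRS3 was no longer called without empty vector replicate 1 (log2 fold change 0.62) or with no filter on low counts (0.78).

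The transcripts of the forward and backward enzymes of the retinol step thus were both higher. Per length, RDH10 made up 21.0% and 18.6% of the RDH10 and DHRS3 transcripts in the TINCR-HA-FLAG libraries, against 17.9% and 16.3% in the empty vector libraries. The groups did not overlap, and their means differed by 2.73 percentage points, beside SDs of 1.64 in TINCR-HA-FLAG cells and 1.11 in empty vector cells (n = 2 each). Without TINCR-HA-FLAG replicate 1 the difference was 1.57 points. The sum of both was 25.8 and 29.2 RPKM in the TINCR-HA-FLAG libraries, against 14.4 and 16.7 in the empty vector libraries.

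CRABP2, the binding protein that delivers retinoic acid to the RARs (ENSG00000143320.9, chromosome 1, 156699606 to 156705816, minus strand), had 334 and 448 counts in TINCR-HA-FLAG cells, against 159 and 231 counts in empty vector cells. Its CPM was 18.1 and 20.2 in the TINCR-HA-FLAG libraries, against 9.28 and 13.6 in the empty vector libraries. The groups did not overlap, but the empty vector libraries stood far apart from each other. The log2 fold change was 0.75 (SE 0.19), and the gene was not called with all 4 libraries. It was 0.45 and not called when empty vector replicate 1 was left out. Leaving out replicate 2 of the same group gave 1.05 and leaving out TINCR-HA-FLAG replicate 1 gave 0.82, both called, while leaving out TINCR-HA-FLAG replicate 2 gave 0.66, not called. With the replicate number as a block it was 0.74 and called. CRABP2 outweighed CRABP1 per length in every library, at 85.0% and 83.1% of the pair in the TINCR-HA-FLAG libraries, against 83.7% and 79.1% in the empty vector libraries. These shares overlapped between the groups.

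RARB, the RAR known for induction by its own ligand (ENSG00000077092.19, chromosome 3, 25174332 to 25597932, plus strand), had 215 and 268 counts in TINCR-HA-FLAG cells, against 90 and 57 counts in empty vector cells. Its CPM was 11.7 and 12.1 in the TINCR-HA-FLAG libraries, against 5.25 and 3.36 in the empty vector libraries. The TINCR-HA-FLAG libraries were nearly equal and both well above the empty vector libraries, which differed from each other. The log2 fold change was 1.46 (SE 0.23), 1.78 when empty vector replicate 1 was left out and 1.18 when replicate 2 of that group was.

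RARG, the main RAR of squamous epithelium (ENSG00000172819.17, chromosome 12, 53210567 to 53232980, minus strand), had 224 and 261 CPM in the TINCR-HA-FLAG libraries, against 237 and 282 CPM in the empty vector libraries. RARA, the RAR found in most tissues (ENSG00000131759.18, chromosome 17, 40309192 to 40357643, plus strand), had 33.7 and 39.0 CPM in the TINCR-HA-FLAG libraries, against 38.1 and 40.9 CPM in the empty vector libraries. Both overlapped between the groups, with log2 fold changes of -0.09 (SE 0.13) for RARG and -0.12 (SE 0.12) for RARA. RARG held 81.0% and 81.6% of the RAR transcripts per length in the TINCR-HA-FLAG libraries, against 83.0% and 85.2% in the empty vector libraries. RARB held 5.84% and 5.23% in the TINCR-HA-FLAG libraries, against 2.56% and 1.41% in the empty vector libraries, so it stayed the least abundant RAR in all 4. The summed RAR level overlapped between the groups, at 54.1 and 62.5 RPKM in the TINCR-HA-FLAG libraries, against 55.6 and 64.5 in the empty vector libraries.

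RXRA, the general heterodimer partner of the RARs (ENSG00000186350.12, chromosome 9, 134317098 to 134440585, plus strand), had 498 and 576 CPM in the TINCR-HA-FLAG libraries, against 490 and 590 CPM in the empty vector libraries. The replicates of each group differed far more than the groups did, and the log2 fold change was -0.01 (SE 0.13). RXRB, a further RXR of wide expression (ENSG00000204231.11, chromosome 6, 33193588 to 33200688, minus strand), had 62.2 and 56.3 CPM in the TINCR-HA-FLAG libraries, against 51.5 and 45.5 CPM in the empty vector libraries. Its groups did not overlap, by a small margin, and the log2 fold change was 0.29 (SE 0.11). RXRG, the RXR of muscle and brain, had 3 and 3 counts in TINCR-HA-FLAG cells, against 6 and 4 counts in empty vector cells, and did not pass the filter.

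**Figure D2:**
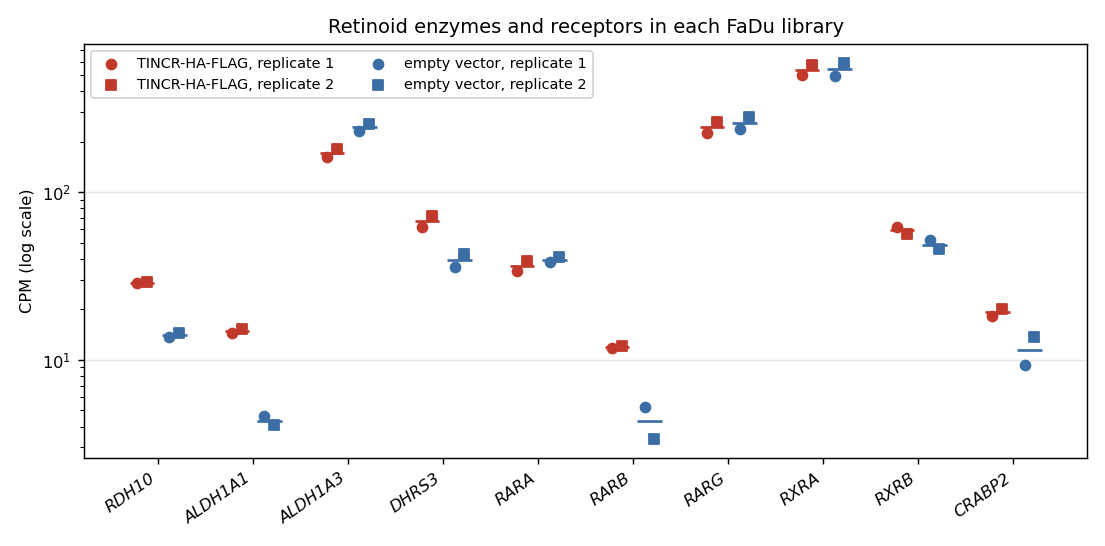
Level of each member (CPM, log scale) in the 2 TINCR-HA-FLAG libraries (red) and the 2 empty vector libraries (blue), with a line at each group mean. ALDH1A1, RDH10, DHRS3, RARB, RXRB and CRABP2 lie higher in both TINCR-HA-FLAG libraries, ALDH1A3 lies lower in both, and RARA, RARG and RXRA overlap.

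In all, 7 of the 10 genes had groups that did not overlap, beside 39.6% of all genes tested, a count that the choice of genes had in view. In 6 of them both TINCR-HA-FLAG libraries lay above both empty vector libraries, as in 21.7% of all genes tested. Of the 10, ALDH1A3 alone had the reverse, as in 17.9% of all genes tested. Per length, the order of levels in TINCR-HA-FLAG cells was RXRA (48.4 ± 4.99), RARG (47.4 ± 5.08), ALDH1A3 (29.7 ± 2.35), DHRS3 (22.1 ± 2.36), CRABP2 (17.4 ± 1.3), RXRB (15.1 ± 1.07), RARA (7.69 ± 0.79), RDH10 (5.42 ± 0.021), ALDH1A1 (5.22 ± 0.22) and RARB (3.21 ± 0.077), in RPKM (SD, n = 2). Neighbours in that order whose ranges of mean ± 1 SD met were RXRA and RARG, CRABP2 and RXRB, and RDH10 and ALDH1A1. In empty vector cells the same scale placed RARG at 50.6 ± 6.25, RXRA at 48.7 ± 6.35, ALDH1A3 at 42.1 ± 2.83, DHRS3 at 12.9 ± 1.56, RXRB at 12.4 ± 1.08, CRABP2 at 10.4 ± 2.79, RARA at 8.34 ± 0.42, RDH10 at 2.65 ± 0.11, ALDH1A1 at 1.52 ± 0.13 and RARB at 1.17 ± 0.36 (SD, n = 2). There RARG and RXRA, RXRA and ALDH1A3, DHRS3 and RXRB, RXRB and CRABP2, CRABP2 and RARA, and ALDH1A1 and RARB met in the same way. Both orders are for merged exons. With the longest transcript of each gene as its length, some ranks changed in both groups, such as RXRA above RARG in empty vector cells.

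The rest of the pathway was read from lists of genes chosen by function, which hold none of the 10 genes above. Outside the keratinocyte lists, 69 of 87 such genes passed the filter, and edgeR called none of them, nor did DESeq2. At an unadjusted p below 0.05, edgeR picked 12 of the 69 and 10.2% of the whole table. No such gene reached the size of change seen in ALDH1A1, and RBP4, the serum retinol carrier, came nearest with 23 and 30 counts in TINCR-HA-FLAG cells, against 9 and 7 counts in empty vector cells (log2 fold change 1.46, SE 0.52, edgeR adjusted p = 0.36).

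Other oxidoreductases of retinol and retinaldehyde (15 of 21 tested) had 7 log2 fold changes above 0 and 8 below, and their median was -0.06, beside 0.004 over all genes tested. None was called by edgeR or DESeq2, and 3 had an unadjusted p under 0.05. The most abundant was AKR1B1, an aldo-keto reductase, with 162 ± 17.5 CPM in TINCR-HA-FLAG cells and 208 ± 18.6 CPM in empty vector cells (SD, n = 2 each, edgeR adjusted p = 0.30). RDH11, a retinaldehyde reductase, had 83.0 ± 2.48 CPM in TINCR-HA-FLAG cells and 93.6 ± 0.27 CPM in empty vector cells (adjusted p = 0.63 in edgeR). ADH5, a class III alcohol dehydrogenase, had 65.6 ± 1.14 CPM in TINCR-HA-FLAG cells and 68.5 ± 1.45 CPM in empty vector cells (adjusted p = 0.90 in edgeR). ADH1C, named after its values were seen, had 78 and 87 counts in TINCR-HA-FLAG cells, against 26 and 38 counts in empty vector cells (log2 fold change 1.11, SE 0.32, edgeR adjusted p = 0.23), where reads could be shared with the similar ADH1A and ADH1B.

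For retinoic acid breakdown, the transcripts of CYP26A1 and CYP26B1 were read, which encode hydroxylases of retinoic acid. RNA counts give neither protein, enzyme activity nor retinoic acid, here or for any other gene. CYP26A1 had 58 and 85 counts in TINCR-HA-FLAG cells, against 42 and 70 counts in empty vector cells, which overlapped after scaling (log2 fold change 0.10, SE 0.32, edgeR adjusted p = 0.96). CYP26B1 had 297 and 435 counts in TINCR-HA-FLAG cells, against 417 and 388 counts in empty vector cells (log2 fold change -0.40, SE 0.14, edgeR adjusted p = 0.36). After scaling, its TINCR-HA-FLAG libraries (16.1 and 19.6 CPM) lay below both empty vector libraries (24.3 and 22.9 CPM), as in 17.9% of all genes tested. Neither was called, and CYP26A1, with 42 to 85 counts, was measured less precisely than RARB or DHRS3. CYP1B1, a cytochrome that can oxidise retinoids, had 6.15 ± 0.86 CPM in TINCR-HA-FLAG cells and 6.84 ± 0.34 CPM in empty vector cells (SD, n = 2 each, edgeR adjusted p = 0.90). Of this list of 7 genes, 5 were tested, with 0 called by edgeR or DESeq2 and 1 at an unadjusted p under 0.05.

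Genes of retinoid uptake, storage, binding and carotenoid cleavage (17 of 24 tested) had a median log2 fold change of 0.07, none called by edgeR or DESeq2 and 2 at an unadjusted p under 0.05. Their most abundant members were LRP1, an endocytic receptor (113 ± 10.3 CPM in TINCR-HA-FLAG cells and 119 ± 1.24 CPM in empty vector cells, SD, n = 2 each), PNPLA2, a lipase, and SCARB1, a scavenger receptor that takes up carotenoids. PNPLA2 had 69.5 ± 3.70 CPM in TINCR-HA-FLAG cells and 65.4 ± 3.84 CPM in empty vector cells (SD, n = 2 each). SCARB1 had 62.3 ± 8.57 CPM in TINCR-HA-FLAG cells and 69.8 ± 4.74 CPM in empty vector cells (SD, n = 2 each). Coregulators and other receptors (17 of 18 tested) had a median of 0.05, none called by edgeR or DESeq2 and 2 at an unadjusted p under 0.05. TBL1XR1, a subunit of the corepressor complex, had 700 ± 31.7 CPM in TINCR-HA-FLAG cells and 593 ± 1.96 CPM in empty vector cells (SD, n = 2 each, edgeR adjusted p = 0.54). The acetyltransferase gene EP300 had 396 ± 18.7 CPM in TINCR-HA-FLAG cells and 391 ± 10.1 CPM in empty vector cells (SD, n = 2 each).

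Genes known to be induced by retinoic acid in other cells (20 of 22 tested) had 14 log2 fold changes above 0 and 6 below, with a median of 0.10, where 50.7% of all genes tested lay above 0. None was called by edgeR or DESeq2, and 5 had an unadjusted p under 0.05. TNFAIP2, the most abundant, had 1435 ± 12.1 CPM in TINCR-HA-FLAG cells and 1208 ± 35.4 CPM in empty vector cells (SD, n = 2 each, edgeR adjusted p = 0.57). GPRC5A, an orphan receptor first found as a retinoic acid-induced gene, had 788 ± 2.62 CPM in TINCR-HA-FLAG cells and 645 ± 31.9 CPM in empty vector cells (SD, n = 2 each, edgeR adjusted p = 0.43). ELF3, an epithelial ETS factor, had 274 ± 25.9 CPM in TINCR-HA-FLAG cells and 250 ± 20.7 CPM in empty vector cells (SD, n = 2 each, edgeR adjusted p = 0.78). Values of this list reached at most 0.50. RARB, DHRS3 and CRABP2 are known as induced by retinoic acid too, but the list leaves them out as members. Since members were chosen with this contrast known, the list cannot show whether they differ from other induced genes.

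Keratins and cornification genes that retinoids are known to regulate in cultured keratinocytes were mixed. Of the pair known to rise, KRT13, a keratin of non-cornifying epithelium, rose to 202 ± 19.5 CPM in TINCR-HA-FLAG cells, against 73.2 ± 7.34 CPM in empty vector cells (SD, n = 2 each, log2 fold change 1.47, SE 0.12, edgeR adjusted p = 0.00057). KRT19, a keratin of simple and mucosal epithelium, had 946 ± 123 CPM in TINCR-HA-FLAG cells and 922 ± 111 CPM in empty vector cells (SD, n = 2 each, edgeR adjusted p = 0.97). The result for KRT13 was known when the list was made, so it is no independent evidence for the list. Of the 8 genes known to fall, 5 were tested, none was called by edgeR or DESeq2 and 0 had an unadjusted p under 0.05. TGM1, the cross-linking enzyme of the cornified envelope, had 43.5 ± 4.74 CPM in TINCR-HA-FLAG cells and 41.9 ± 2.17 CPM in empty vector cells (SD, n = 2 each). KRT10, an early marker of cornifying cells, had 18.4 ± 2.11 CPM in TINCR-HA-FLAG cells and 15.5 ± 0.72 CPM in empty vector cells, and FLG, the filaggrin gene, 13.8 ± 2.40 CPM in TINCR-HA-FLAG cells and 16.6 ± 0.92 CPM in empty vector cells (SD, n = 2 each).

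**Figure D3:**
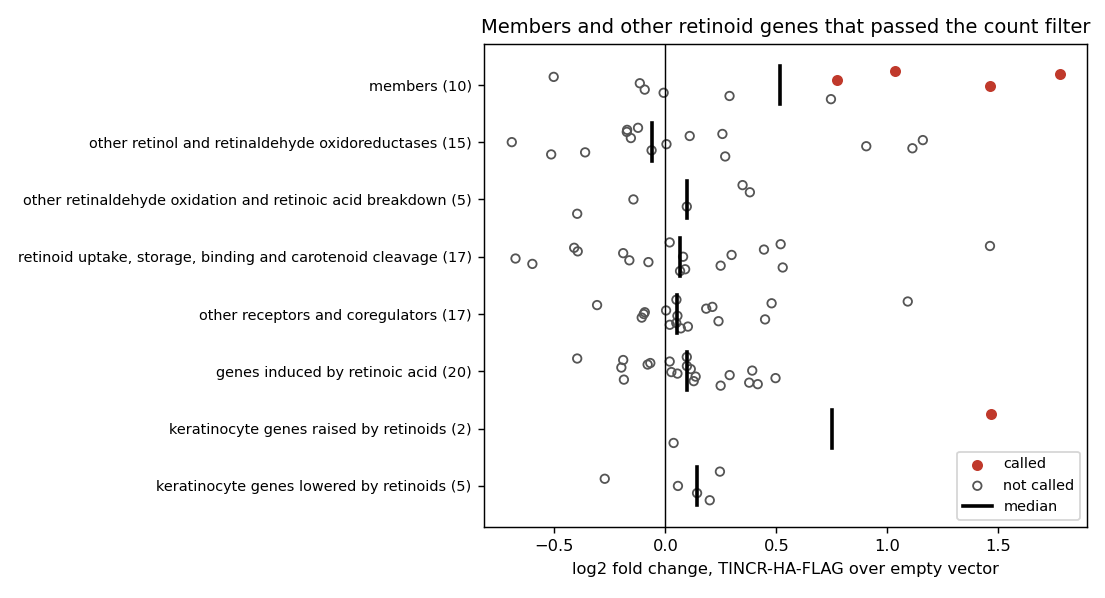
Log2 fold change (TINCR-HA-FLAG over empty vector) of each gene that passed the filter, for the 10 members and 7 lists of other retinoid genes, with filled points for genes called by edgeR, open points for the others and a bar at each median. The 4 called members and KRT13 lie between 0.77 and 1.78, and the medians of the lists run from -0.06 to 0.14, except 0.75 for the pair of keratins that retinoids raise.

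To set each member beside its region, the 5 tested genes on either side of it were taken. Of these 100 neighbours edgeR called 0 and DESeq2 0, and 11 had an unadjusted edgeR p under 0.05, beside the 10.2% of all genes. The neighbours of RARB had log2 fold changes from -0.52 to 0.45 with a median of 0.14, and those of CRABP2 from -0.46 to 0.19 with a median of -0.10. Those of DHRS3 had a median of -0.03 and those of RDH10 a median of 0.10. Around ALDH1A1, 8 of 10 neighbours were above 0 and the median was 0.42, more than around any other member. The highest of them, ENSG00000227809, TMC1 and LINC01504, had low counts and large errors (SE 0.65, 0.57 and 0.48). Better counted were ANXA1, next to it, at 0.19 (SE 0.12) and the guanine deaminase gene GDA at 0.35 (SE 0.11). ZFAND5 stood at 0.29 (SE 0.11) and C9orf40 at -0.08 (SE 0.18). Around ALDH1A3, 7 of 10 were below 0 and the median was -0.31, and the adjacent kinase gene LRRK1 had 0.02 (SE 0.10). These 10 include ALDH1A3-AS1 and ENSG00000278456, which overlap ALDH1A3 itself.

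**Figure D4:**
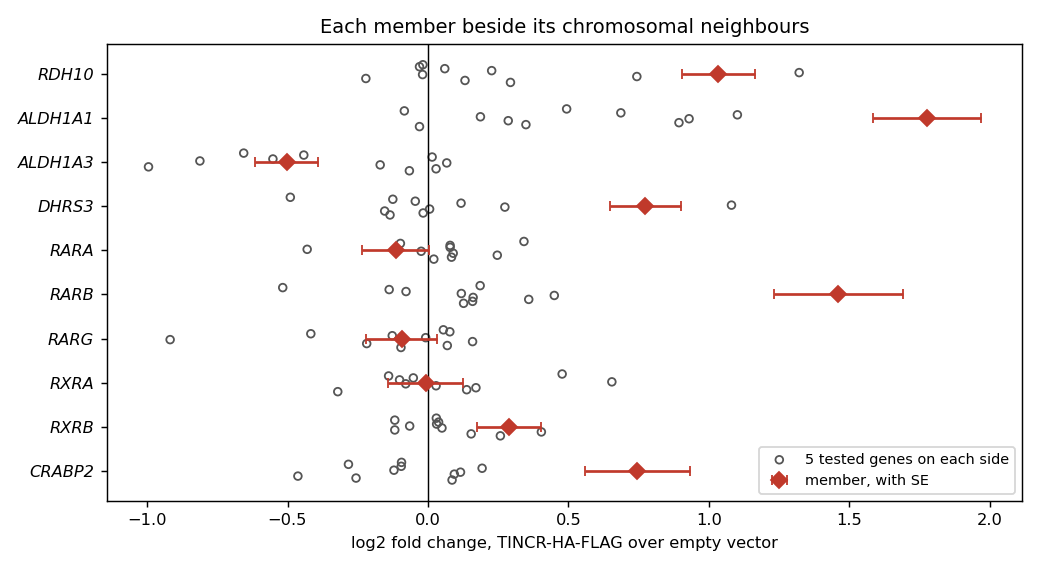
Log2 fold change (TINCR-HA-FLAG over empty vector) of each member (red, with its SE) and of the 5 tested genes on each side of it (open circles). ALDH1A1, RARB and CRABP2 lie beyond all of their neighbours, while RDH10 and DHRS3 each have 1 neighbour at a higher value, both at low counts.

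Several members share ground with genes on the other strand, and the strand setting of the counting is not given in the sources used here. ALDH1A3-AS1, inside ALDH1A3, had 930 and 784 counts in TINCR-HA-FLAG cells, against 1261 and 879 counts in empty vector cells (log2 fold change -0.55, SE 0.19, edgeR adjusted p = 0.34), so it was near the ALDH1A3 value. RDH10-AS1 had 25 and 35 counts in TINCR-HA-FLAG cells, against 14 and 6 counts in empty vector cells (log2 fold change 1.3, SE 0.52, edgeR adjusted p = 0.42), a value above that of RDH10 with a far larger error. RPL7, which overlaps RDH10, had -0.02 (SE 0.11) and TOP2B, which overlaps RARB, 0.12 (SE 0.11). If strand was ignored, sense and antisense reads cannot be told apart.

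The 5 genes closest to ALDH1A1 in their profile over the 4 libraries were LINC01234, SPTSSB, STEAP4, DNM1 and IFI27. Closeness was the Euclidean distance between log2 CPM values centred on each gene's own mean. Of the 11984 genes at a mean log2 CPM of 2 or more, those with an official symbol were searched. LINC01234, a long noncoding RNA, was nearest at a distance of 0.17, with 315 and 377 counts in TINCR-HA-FLAG cells, against 88 and 89 counts in empty vector cells. The distances of the others were 0.26 for SPTSSB, 0.27 for STEAP4 and DNM1 and 0.31 for IFI27. All 5 were called higher, beside 0.453% of all genes tested. That follows from picking them by closeness to a gene that was itself higher, so nothing is read from it. The 4 libraries of a profile fall into only 2 groups.

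Of the whole series, TINCR had 1921 and 2943 counts in TINCR-HA-FLAG cells, against 68 and 64 counts in empty vector cells, higher in both libraries labelled for it. The libraries held from 17069533 to 22331602 counts, at which 3 counts are 0.135 to 0.177 CPM. Mitochondrial genes took 8.66% to 11.4% of the counts in TINCR-HA-FLAG cells, against 7.58% to 9.43% in the empty vector libraries, and any part of this in the values above was not tested. The 8 squamous epithelial markers were all expressed and summed to 7351 and 8600 CPM in the TINCR-HA-FLAG libraries, against 8577 and 9820 CPM in the empty vector libraries. KRT5 and KRT17 made up most of that sum, and 7 of the 8 had a log2 fold change below 0, all but CDH1. SFN, the gene of the stratifin protein, had 166 ± 33.8 CPM in TINCR-HA-FLAG cells and 272 ± 27.1 CPM in empty vector cells (SD, n = 2 each, log2 fold change -0.71, SE 0.14, edgeR adjusted p = 0.074), called lower by DESeq2 alone. The part of these markers in the members' values was not tested. Fibroblast markers summed to at most 50.9 CPM, endothelial markers to 13.9 and leukocyte markers to 9.65, with 4 of 5 endothelial and 5 of 6 leukocyte markers under 1 CPM in every library.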

How the data were processed

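Per the labels' protocols, RNA came from an RNeasy extraction and libraries from the NEBNext Ultra RNA method. Values in the deposited table are raw, whole-number counts for each Ensembl gene. STAR 2.7.9a, DESeq2 1.32.0, bcl2fastq 2.20.0.422 and the build GRCh38 are named in the submitters' processing notes. How reads were counted, with which annotation and strand setting, is not given in the sources used here. A further 12 library columns fit none of the 4 samples and were left aside. Columns were matched to samples by cell line, construct and replicate number. Symbols came from a reference table (60463 rows matched), and positions and exon lengths from GENCODE (GRCh38, 58337 rows matched).

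Counts were scaled by TMM, filtered with filterByExpr and fitted in R 4.3.3 by robust quasi-likelihood (edgeR 4.0.16) over all 18771 genes, with Benjamini-Hochberg adjustment and genes under an adjusted p of 0.05 called. The common coefficient of variation was 0.118 with 2 residual degrees of freedom. Standard errors of log2 fold changes come from that fit. Levels per length are CPM per kilobase of merged exons, which understate genes with many annotated exons. Members and lists were chosen with earlier results of these data known. Named genes were the members, TINCR, called neighbours, the 5 nearest profiles to ALDH1A1 and, of each list, the called genes and the 3 with the highest level. One gene that this rule takes is not reported here, although it stayed in every test. RBP4, ADH1C, SFN, KRT5, KRT17, CDH1, RXRG, ALDH1A2, CRABP1, the antisense and overlapping genes and the neighbours named were chosen after their values were seen. Alternatives were DESeq2 1.42.0, other scalings and filters, TINCR left out, the replicate number as a block and leaving out each library.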

Additional observations from a re-analysis of the deposited data

How the results depend on the processing

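The members were chosen with this contrast known, so calls repeated on the same 4 libraries are a description and no support. ALDH1A1, RARB and RDH10 were called higher under all 11 alternatives, with log2 fold changes from 1.70 to 1.83, from 1.18 to 1.78 and from 0.95 to 1.08. DHRS3 was called under 9 of 11, CRABP2 and ALDH1A3 under 3 each and RXRB under 1. RARA, RARG and RXRA were called under none, with values from -0.26 to 0.14. Leaving out 1 library gave 3 to 5 called members, with 0.615% to 1.9% of all genes called in the same fits. The remaining library of a group then borrows its spread from the other group. The number of genes called over the whole table was 85 higher and 18 lower. DESeq2 gave 131 and 59, no filter on low counts 47 and 6. Leaving out 1 library gave 69 to 226 higher and 45 to 160 lower. These were 171 and 61 without TINCR-HA-FLAG replicate 1, 226 and 160 without TINCR-HA-FLAG replicate 2, 69 and 55 without replicate 1 of the empty vector, and 127 and 45 without its replicate 2. Of the other pathway genes 1 was called, and 1 to 2 without 1 library. The 1 called with all 4 libraries was KRT13, whose result was known when its list was made. With the replicate number as a block, 1317 genes were called higher and 1316 lower, 14% of all genes tested. Among the calls were 7 members (all but RARA, RARG and RXRA) and 16 of the 76 other pathway genes tested. The labels give no pairing behind the numbers. Same-numbered libraries nevertheless deviated from their group means together, with a correlation of 0.370 across the genes tested. Whether they share a processing step is not known from the labels. The cause of these shifts was not tested. With the longest transcript in place of merged exons, the ALDH1A1 share differed by 10.7 percentage points between the groups in place of 11.4, and the RARB share by 2.55 in place of 3.55. Without 1 library the share differences lay from 11.1 to 11.8 for ALDH1A1, 2.98 to 4.13 for RARB, 1.02 to 5.99 for RXRB, 0.42 to 4.97 for CRABP2 and 1.57 to 3.89 for RDH10. With all 4 libraries the RXRB shares overlapped between the groups, as the CRABP2 shares did. Those of RXRB were 26.1% and 21.6% in the TINCR-HA-FLAG libraries, against 22.8% and 17.9% in the empty vector libraries. With AGGTCA and AGTTCA as the only hexamers, 0 member windows held a repeat in place of 1. Each group rests on 2 libraries.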
